A study of Rattus norvegicus with 33 samples.

Results

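Prostates of male Sprague-Dawley rats given estradiol benzoate (EB) as newborn pups were compared with those of vehicle-injected rats at postnatal day (PND) 145. The comparison holds 7 of the 33 arrays of the series, chosen by their titles: 4 of the EB group and 3 of the control group. EB is a long-acting estrogen ester. EB rats received 2.5 mg/kg under the skin on PND 1, 3 and 5, and control rats received vehicle on the same days. From PND 90 both groups carried 3 empty silastic implants. The tissue is whole prostate by the sample labels and dorsolateral prostate by the series title, and the lobes taken could not be settled. Each group came from 3 to 4 litters per the labels, and animals of a group are treated as separate samples. Each array reads total RNA of bulk tissue, in which fewer cells of a type and less RNA per cell cannot be told apart.

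The rat prostate grows its ducts in the days after birth, under testicular androgen and signals exchanged between epithelium and mesenchyme. Estrogen given in that window is known in rodents to leave lasting effects on the adult gland, a process called developmental estrogenization or estrogen imprinting. Among the described effects are disturbed differentiation of luminal and basal epithelium, altered steroid receptor levels and infiltration by immune cells with age.

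Levels are log2 signals relative to the 75th percentile of each array, so 0 is the brightness of a spot at that percentile. Fold changes are log2 ratios of EB over control with the standard error of the fit. Genes were called by limma with Benjamini-Hochberg adjustment over 23296 genes at an adjusted p under 0.05. Of the 7 marker genes of prostate luminal epithelium, 7 were well above background on all 7 arrays, with array means of 3.45 to 4.00 in EB prostates and 3.75 to 3.99 in control prostates. The 4 basal and 5 smooth muscle markers were also above background on all arrays. Arrays had 61.7% to 66.4% of their spots well above background in the EB group and 62.5% to 64.1% in the control group. Pairs of EB arrays correlated at 0.938 to 0.977, pairs of EB and control arrays at 0.905 to 0.972 and pairs of control arrays at 0.953 to 0.974.

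Control array 2 stood apart before any test. Transcripts of maturing sperm cells averaged -7.13, -8.25, -7.40 and -7.85 over 32 measured genes on the EB arrays, against -5.45, 0.12 and -6.61 on the control arrays. The seminal vesicle list averaged -3.74, -2.31, -3.81 and -2.55 over 9 genes on the EB arrays, against -0.94, 2.87 and -0.69 on the control arrays. Neither cell type belongs to prostate tissue, and in both lists control 2 was the highest of the 7 arrays. Over all genes, 773 lay more than 2 log2 units above both other controls on control 2. Ratios without that array are given below where leaving it out moved a named gene by over 1.5-fold.

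**Figure D1:**
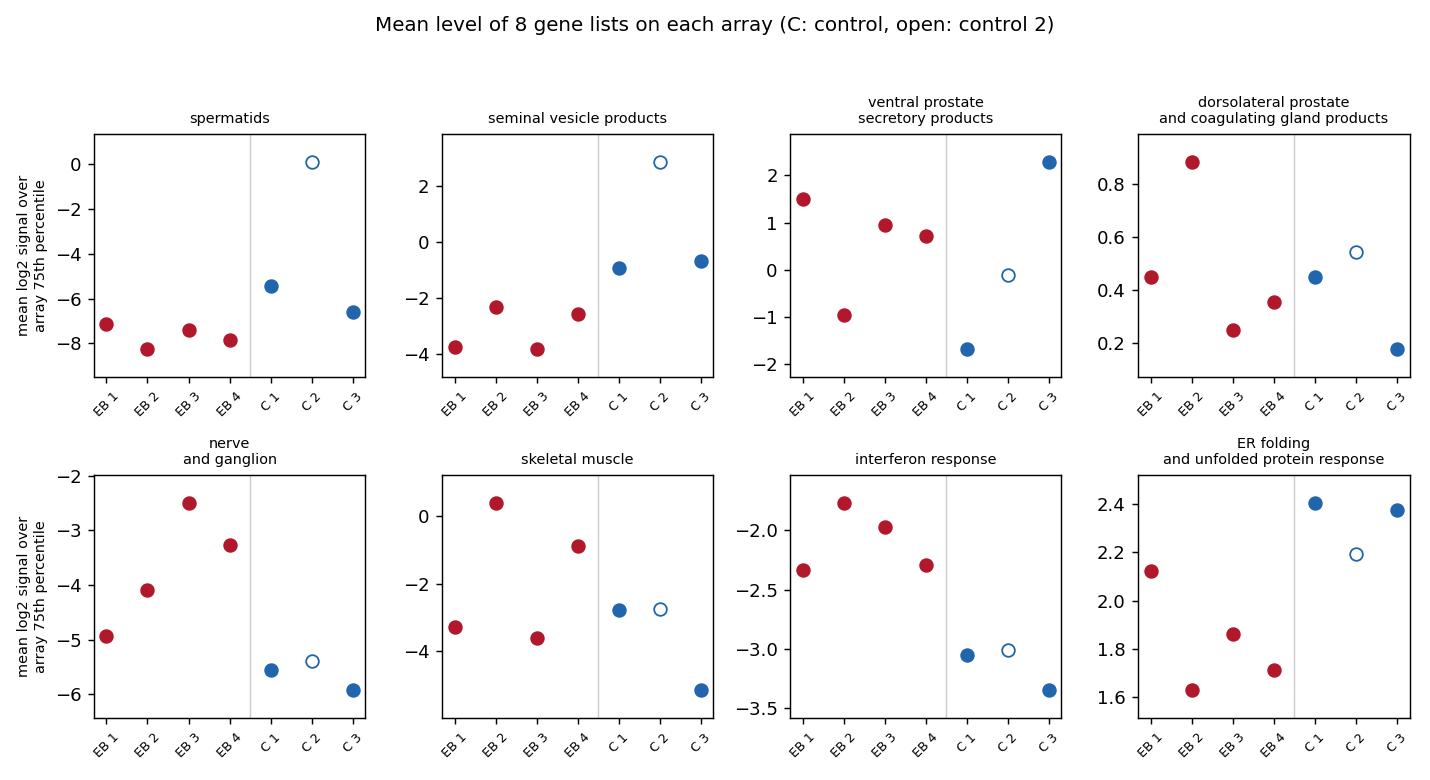
Mean level of 8 gene lists (y axis, log2 signal over the array's 75th percentile) on each EB array (red, left) and each control array (blue, right; control 2 open). Control 2 is the highest array for spermatid transcripts at 0.12 and for the seminal vesicle list at 2.87. The interferon and nerve lists are higher, and the ER folding list lower, on all 4 EB arrays than on all 3 control arrays.

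In all, 133 genes were called (0.571% of those tested), of which 45 were higher in EB prostates (0.193%) and 88 lower (0.378%). At an unadjusted p under 0.05 in either direction there were 3526 genes (15.1%). The higher genes had log2 ratios of 0.87 to 9.32 and the lower ones -0.49 to -8.11. Higher genes made up 33.8% of the calls, and 23.3% with normexp background correction. Without control 2 there were 6 calls (0.0258%), all of them among the 133, while 2118 genes (9.09%) had an unadjusted p under 0.05. The 133 genes all had an unadjusted p under 0.05 in that fit. It reuses the other arrays that gave the calls, so this is no separate support. Their sign was bound to stay, as the groups did not overlap in any of them. Of the 88 lower genes, 31 had control 2 more than 2 log2 units above both other controls, and their median log2 ratio was -5.21 with it and -3.03 without it. For the 45 higher genes the medians were 2.21 and 2.18. In all 45 higher and all 88 lower genes the EB and control arrays did not overlap, against 8.8% and 10.4% of all genes. Slides 3 and 4 each held 1 array of both groups. The sign within these slides follows from the lack of overlap, so it was no separate check. Garin3 had no value on control 3. With slide as a block 32 genes were called. EB 4 was the only array of the series on slide 5, so it adds nothing to the ratios of that fit. Leaving out EB 1, 2, 3 or 4 gave 104, 63, 10 or 52 calls. Leaving out control 1 or 3 gave 69 or 223.

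**Figure D2:**
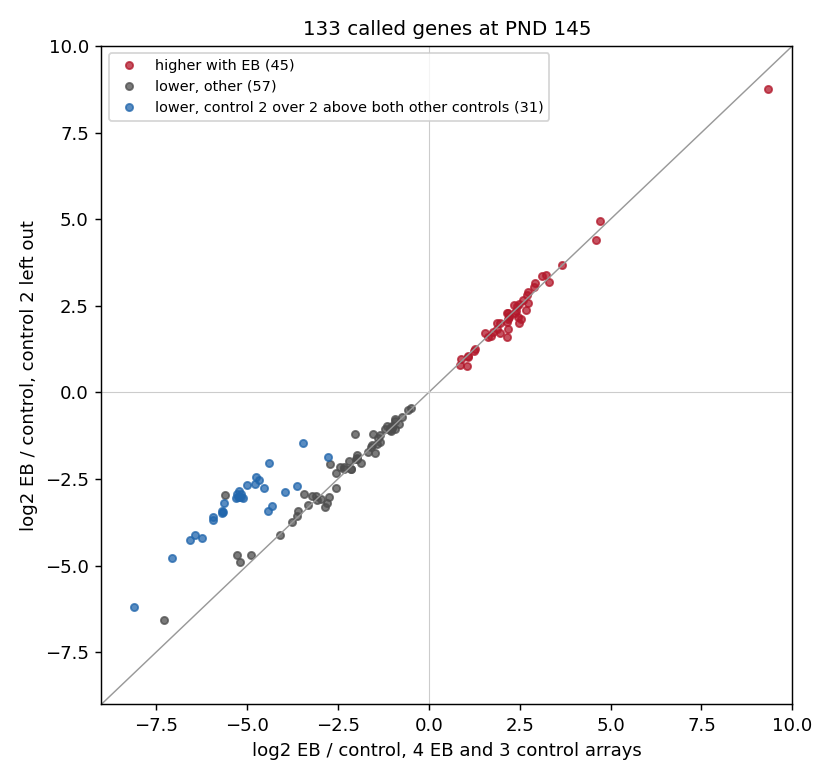
Log2 ratio of EB over control for the 133 called genes with all 7 arrays (x axis) and with control 2 left out (y axis); the line marks equal values. The 45 higher genes (red) lie along the line, and the 31 lower genes on which control 2 exceeded both other controls by over 2 (blue) lie above it.

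Probe sequences show which bases were read where no gene name is known. The unnamed probe was not matched to a transcript here. The 60-base probes below are read from the deposited files, written 5′ to 3′, with positions in rat build rn4 as the files give them. No annotation of that build was used here, so exon positions are not stated. The first 2 belong to features with no protein name, a predicted transcript and a probe to which the files and the RefSeq table give no gene. The next 5 are probes of called genes described below.
LOC100909396 (chr2:62299200-62299259, minus strand): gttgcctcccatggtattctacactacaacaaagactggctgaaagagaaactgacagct
A_44_P531129 (chr4:101181543-101181602, minus strand): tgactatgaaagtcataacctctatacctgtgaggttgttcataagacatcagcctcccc
Postn (chr2:143560792-143561828, plus strand, interrupted): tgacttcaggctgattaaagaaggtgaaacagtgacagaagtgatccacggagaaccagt
Mgst1 (chr4:175254945-175255004, plus strand): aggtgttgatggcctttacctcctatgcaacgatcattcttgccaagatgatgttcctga
Slc7a5 (chr19:52121389-52121448, minus strand): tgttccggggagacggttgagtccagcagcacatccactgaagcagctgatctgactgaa
Svs5 (chr3:155265829-155265888, plus strand): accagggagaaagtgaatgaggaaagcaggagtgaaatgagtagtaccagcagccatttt
Rps4x-ps1 (chr1:237540828-237540888, plus strand): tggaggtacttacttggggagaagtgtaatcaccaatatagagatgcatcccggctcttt

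The 6 features that kept their call without control 2 were also called with each of the 7 arrays left out in turn. They were called in 9 of 10 other settings too, the exception being a fit of these 7 arrays alone, which called 0 genes (4117 at an unadjusted p under 0.05). All these fits reuse the same arrays, and the one with array weights did not converge, so they are no separate support. Nxph3 encodes neurexophilin 3, a secreted ligand of alpha-neurexins known from rodent brain. Its level was -0.51, -0.41, -0.17 and -0.74 in EB prostates, against 1.62, 1.84 and 1.08 in control prostates. It fell by 1.97 on the log2 scale (SE 0.25, adjusted p = 6.28e-04), and by 1.81 without control 2 (adjusted p = 0.0274). A second Nxph3 probe differed by -2.33 between the group means, also without overlap.

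Angptl1, a secreted glycoprotein of the angiopoietin-like family, lay at -7.04, -5.17, -8.20 and -4.80 in EB prostates, against -1.24, -0.53 and -1.57 in control prostates. The log2 ratio was -5.19 ± 0.74 (SE, adjusted p = 0.00204), and 2 of the 4 EB arrays were well above background. Lrrc73, a leucine-rich repeat gene, lay at -4.24, -3.42, -4.28 and -4.46 in EB prostates, against -2.13, -2.06 and -1.68 in control prostates. It fell by 2.15 (SE 0.35, adjusted p = 0.00691). The predicted transcript LOC100909396 lay at -7.04, -6.97, -9.16 and -8.21 in EB prostates, against -0.16, 0.84 and -2.36 in control prostates, a ratio of -7.29 ± 1.08 (adjusted p = 0.00257), and -6.58 without control 2 (adjusted p = 0.0451). Only 1 of the 4 EB arrays read it well above background. In each of these genes the groups were separated by more than 1 log2 unit.

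Ugt1a6 encodes a UDP-glucuronosyltransferase, which attaches glucuronic acid to small phenols so that they can be excreted. Its level was 1.61, 1.94, 1.89 and 1.63 in EB prostates, against -0.90, -0.75 and -0.15 in control prostates. It rose by 2.37 ± 0.37 (adjusted p = 0.00381). A dimmer probe of the gene differed by 0.54 between the group means, also without overlap, so the probes disagree on the size. Genes of the Ugt1a locus share exons, so a probe may read several of them. The last of the 6 is a probe without gene name on chromosome 4, A_44_P1155714 (chr4:103896615-103896674). It read 2.33, -0.79, 1.94 and 0.19 in EB prostates, against -4.02, -3.29 and -4.07 in control prostates (4.71 ± 0.78, adjusted p = 0.00798). A_44_P531129, also on chromosome 4 and printed above, read -2.78, -5.69, -3.55 and -4.53 in EB prostates, against -9.17, -9.12 and -7.91 in control prostates (4.60 ± 1.06, adjusted p = 0.0397). Both unnamed probes were also called at PND 100, at 6.67 and 8.13.

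**Figure D3:**
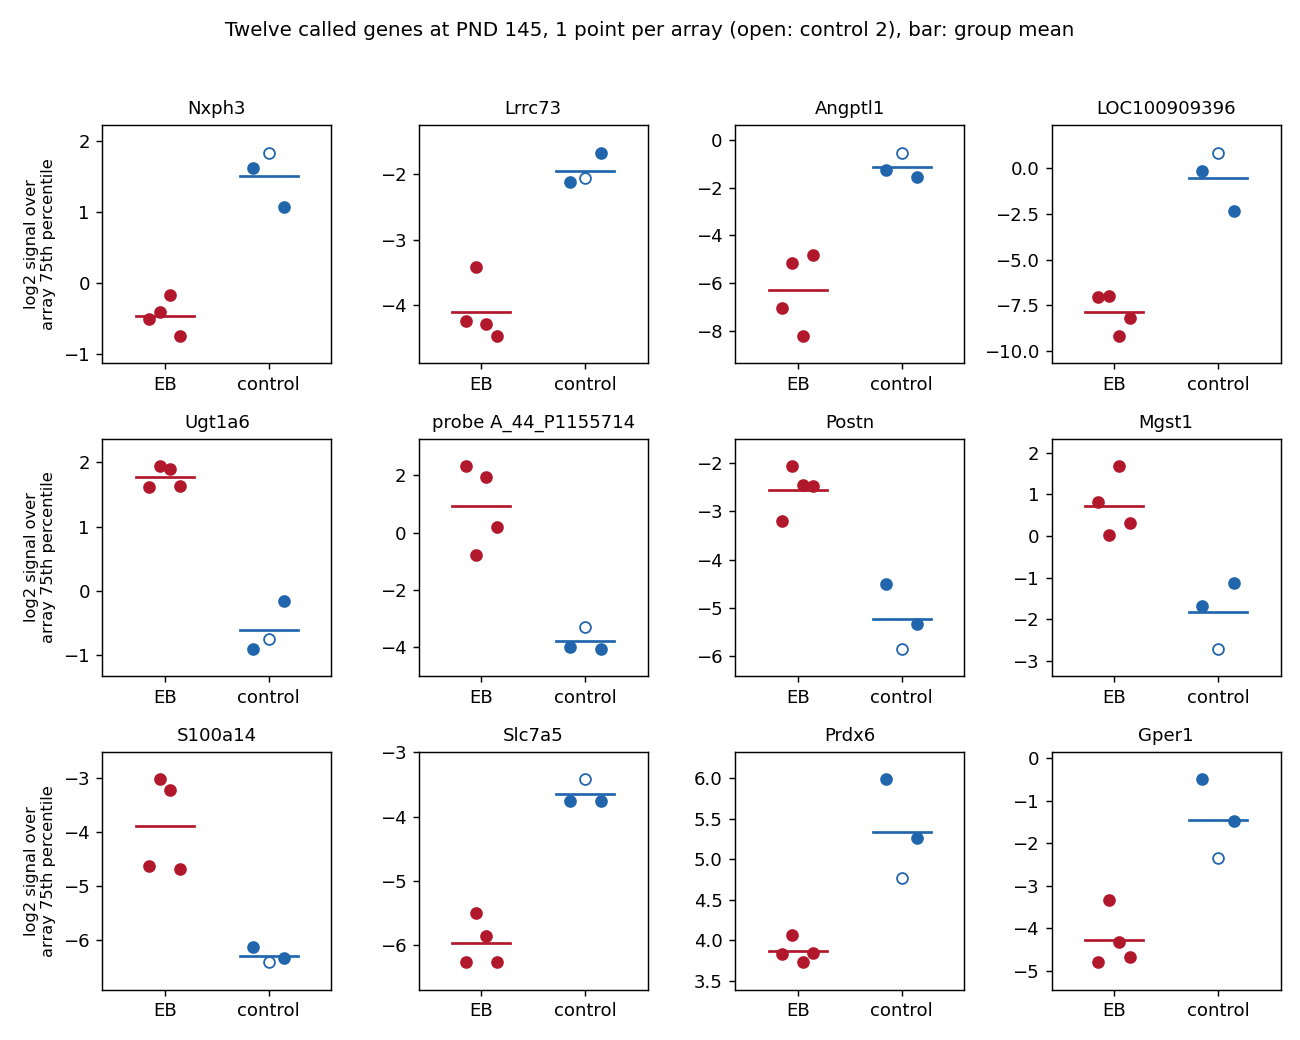
Level of 12 called genes (y axis, log2 signal over the array's 75th percentile) on the 4 EB arrays (red, left) and 3 control arrays (blue, right; control 2 open), with bars at the group means. The first 6 panels are the features called with any 1 array left out, and in all 12 the EB and control points do not overlap.

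The other called genes are described by what they do. The called genes named in the next paragraphs, up to the comparison of ages, lost their call without control 2. Their unadjusted p stayed under 0.05 in that fit, which is no separate support, as stated for the 133. Called genes outside the rule for named genes were picked by known function after their values were seen. Among matrix genes, Postn, which encodes the matricellular protein periostin, lay at -3.21, -2.06, -2.46 and -2.47 in EB prostates, against -4.51, -5.85 and -5.33 in control prostates. It rose by 2.68 ± 0.54 (adjusted p = 0.0224), and by 2.37 without control 2 (adjusted p = 0.185). Its call was also lost without EB 2, 3 or 4. Efemp1, the matrix protein fibulin-3, rose by 1.96 ± 0.37 (adjusted p = 0.0183). The heparan sulfate 6-O-sulfotransferase Hs6st2 rose by 1.72 ± 0.30 (adjusted p = 0.0121) and lost its call only without control 2 among the arrays left out. Lamb1, the laminin beta 1 chain of basement membranes, fell by 2.34 (SE 0.45, adjusted p = 0.0189). Of 48 fibroblast and matrix genes measured, 1 was called, 39 had a ratio above 0 and 9 were higher without overlap, against 8.8% of all genes. Their median was 0.35, beside -0.01 for all genes. Timp1, Dcn and Ogn had ratios of 2.24, 1.14 and 1.08 (adjusted p = 0.0621 to 0.0689) and were not called.

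Genes of detoxification, redox and iron handling were called in both directions. Mgst1, a microsomal glutathione transferase, lay at 0.82, 0.03, 1.68 and 0.31 in EB prostates, against -1.67, -2.71 and -1.12 in control prostates. It rose by 2.55 ± 0.59 (adjusted p = 0.0419), a call kept in 1 of 7 fits with 1 array left out. Prdx6, a peroxiredoxin, lay at 3.83, 4.07, 3.73 and 3.85 in EB prostates, against 5.99, 4.77 and 5.26 in control prostates. It fell by 1.47 (SE 0.31, adjusted p = 0.0264), and by 1.75 without control 2 (adjusted p = 0.0758). A second Prdx6 probe differed by -1.83, without overlap. Of 40 genes of glutathione and antioxidant defence these were the only calls, 26 had a ratio above 0 and the median was 0.20. The ferritin light chain gene Ftl1 fell by 0.57 (SE 0.13, adjusted p = 0.0358), and Hfe, which limits iron uptake, rose by 1.56 ± 0.30 (adjusted p = 0.0189). The alcohol dehydrogenase gene Adh1c rose by 1.28 ± 0.26 (adjusted p = 0.0224). The epidermal-type lipoxygenase Alox12e rose by 2.74 ± 0.64 (adjusted p = 0.0437), a call lost with any 1 of the 7 arrays left out. It was the 1 call among 25 eicosanoid enzymes.

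Called genes of amino acid metabolism and membrane transport were found in both directions. Slc12a8, a solute carrier of the cation-chloride cotransporter family, rose by 1.78 ± 0.38 (adjusted p = 0.0277), and Slc66a3 rose by 1.09 ± 0.25 (adjusted p = 0.0426). Slc7a5, which encodes the large neutral amino acid transporter LAT1, lay at -6.26, -5.50, -5.85 and -6.26 in EB prostates, against -3.75, -3.42 and -3.76 in control prostates (-2.32 ± 0.47, adjusted p = 0.0224). Aars1, the alanyl-tRNA synthetase, lay at 1.87, 1.81, 1.21 and 1.60 in EB prostates, against 2.69, 2.73 and 2.49 in control prostates (-1.01 ± 0.21, adjusted p = 0.0224). Aldh1l2, a mitochondrial folate enzyme, fell by 2.01 (SE 0.40, adjusted p = 0.0224), and Aass, which starts lysine breakdown, fell by 3.59 (SE 0.80, adjusted p = 0.0358). The zinc importer Slc39a10 lay at -0.96, 0.23, -1.77 and 0.69 in EB prostates, against 2.52, 3.21 and 2.53 in control prostates (-3.21 ± 0.68, adjusted p = 0.0276). Prostate epithelium is known for accumulating zinc and citrate. The citrate transporter Slc13a5 fell by 2.77 (SE 0.59, adjusted p = 0.0264), and by 1.87 without control 2 (adjusted p = 0.301). Impdh1, an enzyme of guanine nucleotide synthesis, fell by 1.59 (SE 0.30, adjusted p = 0.0183). These genes were picked for mention because they were called, so they make no test of a pathway.

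The endoplasmic reticulum (ER) folding and unfolded protein response list holds chaperones and sensors that secretory cells need to fold their products. None of its 36 measured members was called, and 6 were lower at an unadjusted p under 0.05, against 7.65% of all genes. All 36 had a ratio below 0, between -1.05 and -0.06, with a median of -0.51 (-0.59 without control 2), and 14 were lower without overlap, against 10.4% of all genes. Within slide 3 the median was -0.57, beside -0.18 for all genes there. The disulfide isomerase Pdia4 lay at 0.25, 0.21, -0.35 and -0.27 in EB prostates, against 1.41, 0.53 and 1.08 in control prostates (-1.05 ± 0.27, adjusted p = 0.0688). The sensor Atf6 lay at 1.08, 1.21, 1.35 and 1.48 in EB prostates, against 2.05, 2.24 and 2.07 in control prostates (-0.84 ± 0.22, adjusted p = 0.0704). Hsp90b1, the ER chaperone GRP94, and the transcription factor Atf4 had ratios of -0.81 and -0.58 (adjusted p = 0.182 and 0.193). Outside the list, Kdelr2, a receptor that returns escaped chaperones to the ER, fell by 1.03 (SE 0.25, adjusted p = 0.0477).

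Several ER chaperone genes carry an ER stress response element in their promoters, the letters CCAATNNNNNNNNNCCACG, bound by Atf6 with a partner. Promoters from RefSeq (build GRCr8, 250 bases before to 50 after the start) were found for 28 of the 36 genes and searched on both strands. The element was present in 9 of the 28 (32.1%) and in 22 of all 33469 promoters (0.0657%). The median log2 ratio was -0.26 for the 9 genes with it and -0.51 for the 19 without it. The promoter of Hsp90b1, the gene with the lowest ratio among the 9, holds the element 2 times, in capitals, once on each strand.
Hsp90b1 (GRCr8, chr7:23012244-23012543, minus strand): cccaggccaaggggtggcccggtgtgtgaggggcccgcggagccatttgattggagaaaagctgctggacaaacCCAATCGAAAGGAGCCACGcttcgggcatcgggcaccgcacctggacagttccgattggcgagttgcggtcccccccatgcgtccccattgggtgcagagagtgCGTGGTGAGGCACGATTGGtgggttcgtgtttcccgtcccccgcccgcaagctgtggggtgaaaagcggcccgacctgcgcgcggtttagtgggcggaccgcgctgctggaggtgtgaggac

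None of the prostate's own secretory products passed the test. Of 15 dorsolateral and coagulating gland products 0 were called, with a median of -0.27. At an unadjusted p under 0.05 there were 4, 2 in each direction, against 15.1% of all genes. Without overlap 4 were higher and 4 lower, against 8.8% and 10.4% of all genes. Gcnt1, an O-glycan branching enzyme, and Nell2, a secreted glycoprotein, were higher at 1.28 and 1.39 (adjusted p = 0.205 and 0.227), as were Mmp7 and Rnase1 at 0.91 and 0.50 (adjusted p = 0.642 and 0.725). Probasin (Pbsn) lay at 5.53, 5.19, 4.25 and 5.04 in EB prostates, against 5.67, 5.94 and 5.71 in control prostates (-0.77 ± 0.33, adjusted p = 0.27). Msmb, Semg1 and the transglutaminase Tgm4 were likewise lower without overlap, at -0.48, -0.55 and -0.68 (adjusted p = 0.362 to 0.66). A second Tgm4 probe of similar brightness differed by -0.32 with overlap. Of 12 ventral lobe products 0 were called (0 at an unadjusted p under 0.05). The ventral product Sbp, spermine-binding protein, ranged from 4.42 to 6.50 in EB prostates and from 1.66 to 6.54 in control prostates. The 4 ventral lobe markers averaged 4.58 to 6.18 on the EB arrays and 2.90 to 6.01 on the control arrays, and how much ventral tissue each sample held was not tested. The 27 luminal epithelial genes had a median of -0.11 and 0 calls (3 at an unadjusted p under 0.05, against 15.1% of all genes). Of 27 basal and squamous genes 1 was called and 24 had a ratio above 0, beside 11465 of all 23296 genes, with a median of 0.48. The call was S100a14, a calcium-binding protein of stratified epithelia, at -4.64, -3.03, -3.23 and -4.69 in EB prostates, against -6.14, -6.42 and -6.35 in control prostates (2.40 ± 0.55, adjusted p = 0.0397). That call was kept in 2 of 7 fits with 1 array left out. Pkp1 and Itgb4 were higher without overlap at 1.31 and 0.97 (adjusted p = 0.132 and 0.155). Of 6 genes of urothelium, which lines the bladder and urethra, 5 had a ratio above 0. Their median ratio was 1.96 over 6 genes with 0 called (2 at an unadjusted p under 0.05, against 15.1% of all genes). Their means were -4.02, -2.33, -0.10 and -3.42 on the EB arrays, against -3.96, -4.29 and -4.19 on the control arrays. The uroplakins Upk3a and Upk2 and the keratin Krt7 of the luminal list were highest on EB 3, at 0.85, -2.39 and 2.03. The brighter uroplakin Upk1a went the other way, at 1.36 to 2.30 on the EB arrays and 2.06 to 2.81 on the control arrays. The part of urothelium in the basal values was not tested.

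Among steroid receptors the membrane estrogen receptor Gper1 was called. It lay at -4.80, -3.34, -4.32 and -4.68 in EB prostates, against -0.49, -2.35 and -1.48 in control prostates. It fell by 2.84 (SE 0.65, adjusted p = 0.0395), and by 3.30 without control 2 (adjusted p = 0.101). Its call was kept in 1 of 7 fits with 1 array left out. A dimmer probe of the gene differed by -1.61 with overlap. Neither nuclear estrogen receptor was called. The estrogen receptor Esr1 lay at -4.29, -4.36, -5.40 and -4.44 in EB prostates, against -5.98, -5.29 and -4.99 in control prostates (0.80 ± 0.44, adjusted p = 0.404). Esr2 had a ratio of -0.07 ± 0.64 (adjusted p = 0.972). Of the steroid enzymes, Hsd17b6 and Srd5a1 had ratios of 3.16 and -1.25 (adjusted p = 0.156 and 0.175). The prolactin receptor Prlr had a ratio of 1.19 ± 1.12 (adjusted p = 0.642), and the progesterone receptor Pgr, at 1.41, was well above background on 1 of 7 arrays. Of 31 estrogen-responsive genes Gper1 was the 1 call. Of 27 androgen-responsive genes 0 were called (6 at an unadjusted p under 0.05, against 15.1% of all genes, median -0.05). Inha, the inhibin alpha subunit, lay at -2.38, -2.87, -2.24 and -2.87 in EB prostates, against -4.46, -4.23 and -4.74 in control prostates (1.89 ± 0.40, adjusted p = 0.0276). The Inha call was kept in 1 of 7 fits with 1 array left out.

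Genes of developmental signalling were called singly. The homeobox gene Msx2 rose to levels above background on 3 of 4 EB arrays and 0 of 3 control arrays, at least 2.42-fold (adjusted p = 0.0496). Tcf7l2, a transcription factor of Wnt signalling, lay at 1.30, 1.12, 0.56 and 1.06 in EB prostates, against 2.37, 2.30 and 2.63 in control prostates (-1.42 ± 0.32, adjusted p = 0.0388). Dvl3, which relays Wnt signals, fell by 0.74 (SE 0.17, adjusted p = 0.0397). Of 38 genes in the list of prostate development signals 0 were called and the median was 0.06. At an unadjusted p under 0.05 there were 10, against 15.1% of all genes. The mesenchymal growth factor Fgf10 and the activin antagonist Fst had ratios of 1.61 and 1.32 (adjusted p = 0.0688 and 0.0821). The epidermal growth factor gene Egf lay at 0.11, 0.85, 0.23 and 0.07 in EB prostates, against 3.69, 1.65 and 2.30 in control prostates (-2.23 ± 0.73, adjusted p = 0.151). Of 43 proliferation genes 0 were called (4 at an unadjusted p under 0.05, against 15.1% of all genes), with a median of -0.41.

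Ratios of immune genes were mostly above 0, and single genes passed the test. Of 44 interferon response genes 0 were called, 17 were higher at an unadjusted p under 0.05, against 7.49% of all genes, and 40 had a ratio above 0. Their median was 1.09 (1.19 without control 2), and 26 were higher without overlap, against 8.8% of all genes. The interferon-induced gene Usp18 lay at -1.54, -1.90, -0.63 and -2.33 in EB prostates, against -3.78, -4.14 and -4.35 in control prostates (2.49 ± 0.81, adjusted p = 0.15). Cmpk2 and Herc6 had ratios of 2.14 and 2.06 (adjusted p = 0.105 and 0.149). Medians were 1.07 for 44 inflammatory mediators, 0.87 for 34 macrophage and neutrophil genes, 0.80 for 34 T and NK cell genes and 0.55 for 23 B and plasma cell genes, with 0 calls in each. The counts higher at an unadjusted p under 0.05 were 14, 5, 9 and 4. Probes without a gene name, among them the unnamed called ones above, are in none of these lists. The chemokine Cxcl10 lay at -2.53, -1.93, -2.17 and -1.65 in EB prostates, against -4.84, -3.26 and -3.95 in control prostates (1.94 ± 0.60, adjusted p = 0.127). The pan-leukocyte gene Ptprc lay at -2.51, -2.30, -2.28 and -2.36 in EB prostates, against -3.25, -3.73 and -4.39 in control prostates (1.43 ± 0.60, adjusted p = 0.259). Clec9a, a receptor of dendritic cells that take up dead cells, was called. It lay at -4.75, -4.34, -5.10 and -5.11 in EB prostates, against -7.94, -7.71 and -8.50 in control prostates, where 0 of 3 arrays were well above background, at least 5.04-fold higher (adjusted p = 0.0264). The call was kept in 1 of 7 fits with 1 array left out. A second, dimmer Clec9a probe differed by 0.81 with overlap. Mb21d1, the DNA sensor cGAS, was at least 1.35-fold higher (adjusted p = 0.0358), with 1 of its 3 probes pointing the other way at background level.

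**Figure D4:**
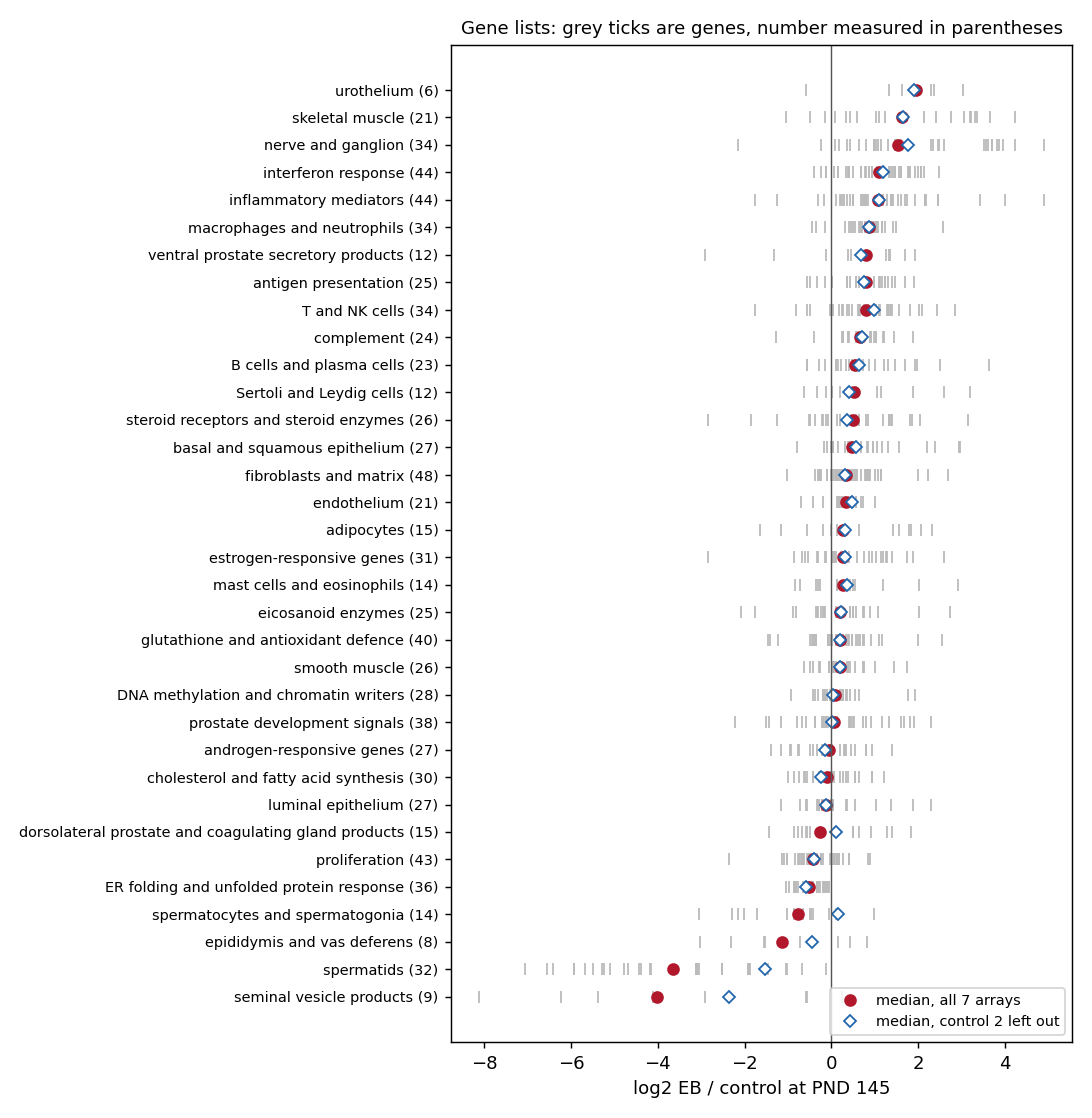
Log2 ratio of EB over control at PND 145 for the measured genes of 34 lists (grey ticks), with the list median over all 7 arrays (red) and without control 2 (blue diamonds). The median of the seminal vesicle list is -4.02 with control 2 and -2.35 without it, that of the spermatid list -3.64 and -1.53, and that of the interferon list 1.09 and 1.19.

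Of 34 nerve and ganglion genes 1 was called, 32 had a ratio above 0 and 18 were higher without overlap, against 8.8% of all genes, with a median of 1.54 (1.76 without control 2). The call was the glutamate receptor subunit Gria4, at -5.49, -4.01, -3.89 and -4.65 in EB prostates, against -6.15, -7.55 and -7.21 in control prostates (2.46 ± 0.57, adjusted p = 0.0424). That call was kept in 2 of 7 fits with 1 array left out. At an unadjusted p under 0.05, 16 members were higher and 1 lower, against 7.49% and 7.65% of all genes. The lower one was Gal, at -2.15 ± 0.74 (adjusted p = 0.169) with overlap. The list mean ran from -4.94 to -2.50 on the EB arrays and from -5.93 to -5.39 on the control arrays, highest on EB 3. Prph, an intermediate filament gene of peripheral neurons, read -1.61 to 1.09 in EB prostates, against -3.39 to -2.84 in control prostates. The nerve marker Th overlapped, at -3.96 to -0.78 in EB prostates and -3.07 to -2.47 in control prostates. The 4 nerve markers together averaged -3.01 to -0.32 on the EB arrays and -3.09 to -2.65 on the control arrays. Whether EB samples held more nerve was not tested. Other called genes known from neurons were the synaptic adhesion gene Nlgn1, at least 1.59-fold higher (adjusted p = 0.0424), and the somatostatin receptor Sstr4, at least 2.24-fold higher (adjusted p = 0.0367). The calcium channel subunit Cacnb3 fell by 1.54 (SE 0.29, adjusted p = 0.0183). Skeletal muscle genes had a median of 1.62 with 0 of 21 called (0 at an unadjusted p under 0.05). Their means were -3.28, 0.38, -3.61 and -0.90 on the EB arrays, against -2.79, -2.76 and -5.16 on the control arrays, highest on EB 2 and EB 4.

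Transcripts of other tissues were among the called lower genes. Of 32 spermatid genes 12 were called lower, with a median ratio of -3.64, and 0 were called without control 2 (15 lower at an unadjusted p under 0.05, against 4.05% of all genes, median -1.53). The transition protein Tnp1, which packs DNA in maturing sperm, lay at -4.40, -9.45, -6.49 and -7.51 in EB prostates, against -1.54, 4.22 and -3.90 in control prostates. Its ratio was -6.56 ± 1.42 (adjusted p = 0.0279), and -4.25 without control 2 (adjusted p = 0.313). Crisp2, a sperm head protein, was well above background on 0 of 4 EB arrays, at least 32.8-fold lower (adjusted p = 0.0183), and Prm3 was at least 18.9-fold lower (adjusted p = 0.0388). Without control 2 these bounds were 6.76- and 4.03-fold (adjusted p = 0.185 and 0.357). The groups did not overlap in 18 of the 32 genes, against 10.4% of all genes lower without overlap. Of 4 epididymis markers, Lcn5, Crisp1 and Gpx5 were well above background on 0 of 7 arrays. The other, Adam7, was so on 3 of 4 EB and 3 of 3 control arrays. The mean of 8 epididymis and vas deferens genes was -7.22 to -6.73 on the EB arrays. It was -6.27, -5.08 and -6.84 on the control arrays, again highest on control 2.

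Of 9 genes in the seminal vesicle list 2 were called lower. The list also holds Svop, a synaptic vesicle protein gene and not a seminal vesicle product. Svop had the list's only ratio above 0 (0.24, adjusted p = 0.887). Another Svop probe, of similar brightness in EB prostates, differed by 3.12 between the group means, without overlap. It was well above background on 4 of 4 EB and 0 of 3 control arrays. A further Svop probe, at background in both groups, differed by -0.11 with overlap, so the probes disagree. Svs5 lay at -9.02, -5.43, -8.65 and -7.59 in EB prostates, against -1.50, 4.29 and -1.46 in control prostates (-8.11 ± 1.93, adjusted p = 0.0473), and at -6.19 without control 2 (adjusted p = 0.357). Svs1 was well above background on 0 of 4 EB arrays and 3 of 3 control arrays, at least 15.8-fold lower (adjusted p = 0.0397), and at least 3.85-fold without control 2 (adjusted p = 0.357). Pate4 had the same pattern of detection, at least 12.2-fold lower, without passing (adjusted p = 0.205), and at least 3.12-fold without control 2. Svs4 and Semg1, which the prostate's own lobes also express, had ratios of -0.59 and -0.55 (adjusted p = 0.502 and 0.37). A second Svs4 probe differed by 0.09 with overlap. Svs6 ranged from -6.39 to 4.66 in EB prostates and from 0.32 to 5.74 in control prostates. How much seminal vesicle or sperm material each sample held was not tested.

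The probes of 3 called genes overlap in sequence. Vom2r1, Vom2r3 and Vom2r4, members of the vomeronasal receptor family, were called lower at -3.61, -4.32 and -4.41 (adjusted p = 0.0169 to 0.0259) and were well above background on 0 of 4 EB arrays. They were at least 2.60-, 4.69- and 5.06-fold lower, and without control 2 at least 1.40-, 2.29- and 2.57-fold lower (adjusted p = 0.291, 0.244 and 0.153). Their probes, shown because the overlap bears on how many genes were read, share a run of 21 bases, in capitals, and pairs of them share 28 to 34 of 60 bases.
Vom2r1 (rn4, chr1:245901-245960, minus strand): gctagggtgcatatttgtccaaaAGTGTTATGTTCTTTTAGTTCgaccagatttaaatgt
Vom2r3 (rn4, chr1:245866-245895 as listed, minus strand): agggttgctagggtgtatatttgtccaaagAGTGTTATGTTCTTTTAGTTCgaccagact
Vom2r4 (rn4, chr1:1134816-1134875, minus strand): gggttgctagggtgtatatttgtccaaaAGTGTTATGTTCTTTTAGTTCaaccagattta
All 3 were highest on control 2, at -3.95, -2.81 and -2.82, and further probes of Vom2r1 and Vom2r4 differed by -1.80 and -0.55 with overlap. No other pair of called genes had probes sharing 20 bases or more. The highest ratio among the called genes was that of the ribosomal protein pseudogene Rps4x-ps1. It read 2.90, -3.84, 4.65 and 0.95 in EB prostates, against -9.32, -9.26 and -5.89 in control prostates (9.32 ± 2.19, adjusted p = 0.0437). The gene Rps4x itself had a ratio of 0.19 (adjusted p = 0.616), and whether the pseudogene probe also reads related transcripts was not tested. Of the called genes, 34 had further probes that passed the filter of 3 of 33 arrays, some of them at background on these 7, and 38 of these 39 probes had the same sign.

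The EB effect at PND 145 was set beside the effect in the same treatment at PND 30 (4 EB and 4 control arrays) and PND 100 (3 and 3), which share no arrays with it. At PND 30 the animals had no implants yet. EB called 9 genes at PND 30 (0.0386%) and 627 at PND 100 (2.69%). Of the 45 genes higher at PND 145, 15 were also higher at PND 100, which is 33.3% of these and 3.55% of the 423 higher there (1.82% of all genes). Of the 88 lower genes 16 were lower at PND 100, which is 18.2% of these and 7.84% of the 204 lower there (0.876% of all genes). The sign was the same at PND 100 for 44 of the 45 higher genes, against 68.5% of all genes higher at PND 145, and for 66 of the 88 lower genes (75%), against 74.6% of all lower genes. At PND 30 the shared calls were Brinp3, 1 of 2 higher genes there (0.00859%), and Nxph3, 1 of 7 lower genes (0.03%). Brinp3 was at least 1.61-fold higher at PND 145 (adjusted p = 0.0224).

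The pattern over age differed among the 6 most stable features as values, without a test passing. Ugt1a6 had ratios of 1.26, 2.24 and 2.37 at PND 30, 100 and 145. Nxph3 had -1.55, -0.53 and -1.97. Angptl1 had 0.18, -4.01 and -5.19, and Lrrc73 had -0.11, -2.09 and -2.15. LOC100909396 had -0.98, -4.61 and -7.29. The spermatid gene Tnp2, as a contrast, had -0.12, 2.08 and -5.94, the last being -3.61 without control 2. By limma, 0 genes differed in the EB effect between PND 145 and PND 100 (1004 at an unadjusted p under 0.05, 4.31%), and 0 between PND 145 and PND 30 (1237, 5.31%).

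**Figure D5:**
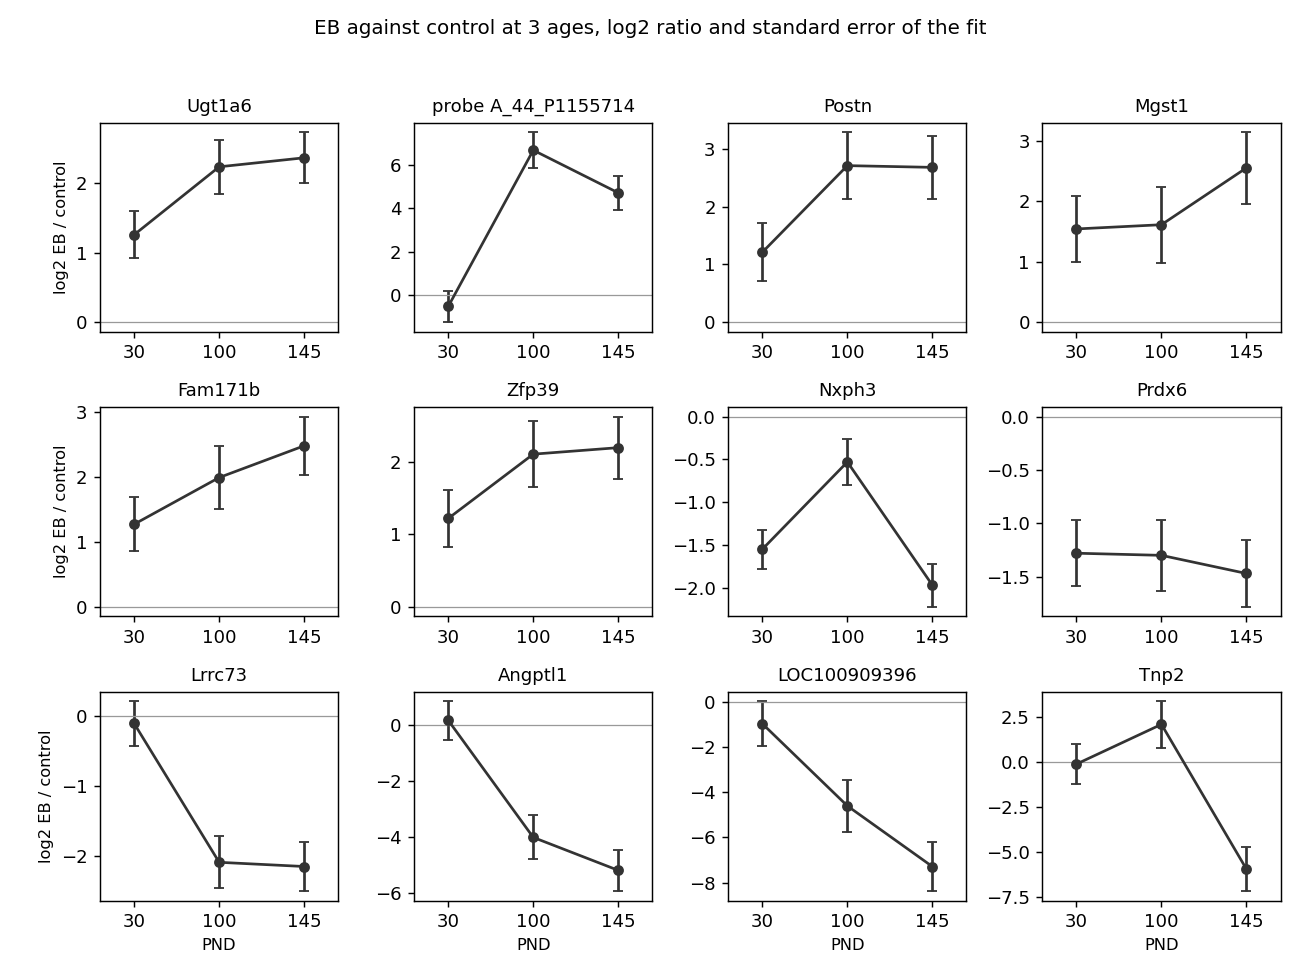
Log2 ratio of EB over control with its standard error (y axis) at PND 30, 100 and 145 (x axis) for 12 called genes. Angptl1, Lrrc73 and LOC100909396 lie between -0.98 and 0.18 at PND 30 and below -2 at both adult ages, while Prdx6 lies between -1.28 and -1.47 at all 3.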

How the data were processed

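Total RNA was read on single-colour Agilent arrays (design 074036 per the file headers) after Cy3 labelling, per the labels' protocols. The deposited scanner files, made with Feature Extraction 12.0.0.7 per the file headers, hold spot intensity on a linear scale, background-subtracted by that software and unscaled. A second deposited table, also from the authors, gives intensity scaled to a 75th percentile of 619.4 to 619.5 per array, linear and not centred. Its column medians run from 30.8 to 49.9 and its log correlation with the scanner values was at least 0.999982.

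Processed signals were divided by the 75th percentile of their array and put on the log2 scale, outlier spots (452 to 810 on the 7 arrays) were dropped and spots of a probe averaged. On EB 3 this left 77 tested genes without a value. Probes were named through RefSeq accessions, symbols or synonyms. A probe was kept if 3 or more of the 33 arrays read it well above background (30542 of 45598), and the brightest stood for each gene (23296, of which 18421 have a gene name). Folds for genes above background in 1 group alone are lower bounds, taken against the dimmest detected signal or the gene's own, whichever is higher. The number of arrays limits the precision.

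One model with 10 group means used limma 3.58.1, R 4.3.3 and the data.table package (version 1.17.8). It used trended, robust empirical Bayes and Benjamini-Hochberg adjustment at 0.05. On simulated data the fit recovered 27 of 100 genes changed by 1 log2 unit and 62 of 100 changed by 2, with 4 false calls. A gene that was not called may therefore still have changed. Figures used matplotlib 3.10.9. Control arrays lay on slides 1, 3 and 4 and EB arrays on slides 2, 3, 4 and 5, with 1 scan per slide. Deviations of same-numbered samples from their group means correlated at -0.0942, 0.0624 and 0.0624, so the numbers do not pair them. Genes were named by rule: the 8 highest and lowest ratios among called genes without overlap, genes called with and without control 2, the 8 smallest p in each direction without it, the 2 largest bounds each way, up to 4 members per list by p, all seminal vesicle, ventral and dorsolateral products, and steroid and prolactin receptors. Some genes under the rule are not reported here. Further called genes were picked after their values were seen. The members, lists and rules were chosen with earlier results of these data known. The other settings were quantile scaling, normexp background correction (offset 50), a filter of 17 arrays or none, slide or replicate number as blocks, only these groups, the mean of all probes, the authors' table, array weights, a 2-fold minimum and each array left out.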

Additional observations from a re-analysis of the deposited data

Results flagged for a closer look

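Among the genes named by rule and the gene lists, the 4 EB arrays were searched for 1 array far from the other 3 by Dixon's criterion. Chance flags about 1 in 20 groups, and 9 genes of 172 tested and 0 of 34 list means met it.

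EB 2 stood apart in 4 genes. Scgb1d2, a ventral lobe secretoglobin, was 3.99 there and 5.77 to 5.97 on the other EB arrays. The matrix metalloproteinase Mmp7 was 5.08 against 3.96 to 4.01, the ribonuclease Rnase1 -3.67 against -4.90 to -4.79, and the beta-defensin Defb24 -6.40 against -5.70 to -5.65. EB 3 stood apart in 4 more. The estrogen receptor Esr1 was -5.40 there and -4.44 to -4.29 on the other EB arrays, and the called gene Hs6st2 was -3.25 against -2.70 to -2.59. The beta-defensin Defb50 was 3.93 against 5.54 to 5.85, and Spag11a was -8.54 against -7.11 to -6.91. On EB 1 the cholesterol transfer gene Stard4 was -0.14 against -0.85 to -0.74.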

How the results depend on the processing

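Against 133 calls (45 higher, 88 lower), normexp background correction gave 30 (7 and 23), slide as a block 32 (12 and 20), and array weights, whose fit did not converge, 3112 (1567 and 1545). A replicate block gave 70 (26 and 44), with the samples sharing only a number. With only the 7 arrays fitted limma called 0 in either direction (4117 at an unadjusted p under 0.05). No filter gave 25 higher genes and a filter of 17 arrays 56 lower genes. Leaving out 1 array in turn gave 6 to 223 calls, 2 to 55 higher and 4 to 168 lower. Of the 133 genes, 85, 52, 10 or 52 kept their call without EB 1, 2, 3 or 4, and 52, 6 or 97 without control 1, 2 or 3. Quantile scaling, the mean of all probes, the authors' deposited table and a 2-fold minimum gave 113 to 146 calls. Array weights gave 50.4% higher calls.

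For the difference of the EB effect from PND 100, array weights called 213 genes and leaving out 1 array 0 to 1. For that from PND 30, array weights called 105, quantile scaling 1, slide as a block 1 and leaving out 1 array 0 to 4. The replicate block changed no call of these differences. The cause of these changes was not tested. No called ratio among the named genes changed sign, and of 183 named ratios 24 lost their call with normexp, 23 with slide as a block and 13 with the replicate block. Genes near background carry the least precise ratios.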
